A study of Ovis aries with 36 samples.

Results

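Of the 25197 Ensembl gene identifiers measured in the sheep infraspinatus, 4 are described here: ENSOARG00000004606, ENSOARG00000014005, ENSOARG00000001748 and ENSOARG00000012476. The first 3 were chosen for the size of their change from before tendon release to tendon repair under nandrolone, and the fourth for its rise over the 6 weeks after repair in the arm that received nandrolone only then. No symbol could be paired with the identifiers, so the function of the 4 genes is not described, and the tissue could not be checked against muscle markers. Total RNA was sequenced from 9 female Swiss Alpine sheep of 2 years, out of a design of 18 animals with 6 per arm. The infraspinatus tendon was cut from the shoulder in every animal and reattached 16 weeks later, also in the controls. The arms of 3 sequenced animals each were CONTROL (animals 2901, 2902 and 2903, no drug), N22W (2913, 2914 and 2915, 150 mg of nandrolone decanoate every week for all 22 weeks) and N6W (2907, 2908 and 2909, the same weekly dose only during the 6 weeks after repair). Each animal gave 4 libraries: the muscle before release (PRE), when the tendon was repaired (TR) and at the end of the experiment (END), 6 weeks later, with the unoperated muscle of the other shoulder (END-CC) taken on that last occasion.

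The infraspinatus is a muscle of the rotator cuff that turns the arm outward and steadies the shoulder joint. When its tendon is detached, the muscle retracts and loses load, its fibres waste, and fat and connective tissue accumulate between them. Reattachment restores the load only in part. Nandrolone is an anabolic steroid that acts through the androgen receptor, a transcription factor present in muscle, and its decanoate ester is released slowly from an oil depot. Muscle biopsies hold several cell types, and in such bulk RNA a change in the number of cells of a type cannot be told apart from a change in RNA per cell.

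Values are normalised reads, that is reads divided by a size factor for each library, and totals of recovered reads per library ran from 11879692 to 43066261 reads. The 12 libraries taken at PRE and TR in the arms CONTROL and N22W stood apart from the other 24. Of all 25197 genes, 591 lay over 8-fold higher in each of the 12 than in any of the 24, and none the opposite way. None of the 4 genes was among them, and their PRE values in N6W, which belongs to the 24, overlapped with those of the other arms, for ENSOARG00000012476 through 1 value only: its N6W PRE values were 6.29, 13.0 and 38.8, against a lowest value of 35.3 and a median of 73.4 in the 6 PRE libraries of the other arms. Changes over repair in CONTROL and N22W cross these library sets and are given as values without a test, since set and time point cannot be told apart there. All 4 genes were above 0 in all 36 libraries and were among the 16417 genes tested. P values from the model over all 36 libraries rest on 1 estimate of the spread per gene, pooled over the 9 sheep.

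The changes that chose the genes are given first, as a description. From PRE to TR in N22W, ENSOARG00000004606 went from 5.27, 3.53 and 2.26 normalised reads in 2913, 2914 and 2915 to 1882, 881 and 201. ENSOARG00000014005 went from 3050, 1464 and 3233 to 166, 607 and 246, and ENSOARG00000001748 from 772, 764 and 518 to 33.1, 172 and 170.1. PRE and TR values did not overlap for any of them, and each animal moved the same way, in the libraries that chose the genes. How many of all genes tested show no overlap was not counted, here or in the other arms. Their log2 fold changes were 7.26, −3.06 and −2.75. ENSOARG00000004606 had the 2nd highest rise of all genes tested, between ENSOARG00000003744 (7.56) and ENSOARG00000019246 (6.32). ENSOARG00000014005 had the deepest fall, ahead of ENSOARG00000003428 (−2.84), and ENSOARG00000001748 the 3rd deepest, just ahead of ENSOARG00000020383 (−2.74). From TR to END in N6W, ENSOARG00000012476 went from 19.1, 15.4 and 2.56 in 2907, 2908 and 2909 to 275.3, 275 and 47.0. That was a log2 fold change of 3.87 and the 3rd highest rise, between ENSOARG00000003744 (4.04) and ENSOARG00000004007 (3.42). In these contrasts limma called 16.8% and 0.0853% of the genes tested, in either direction.

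**Figure D1:**
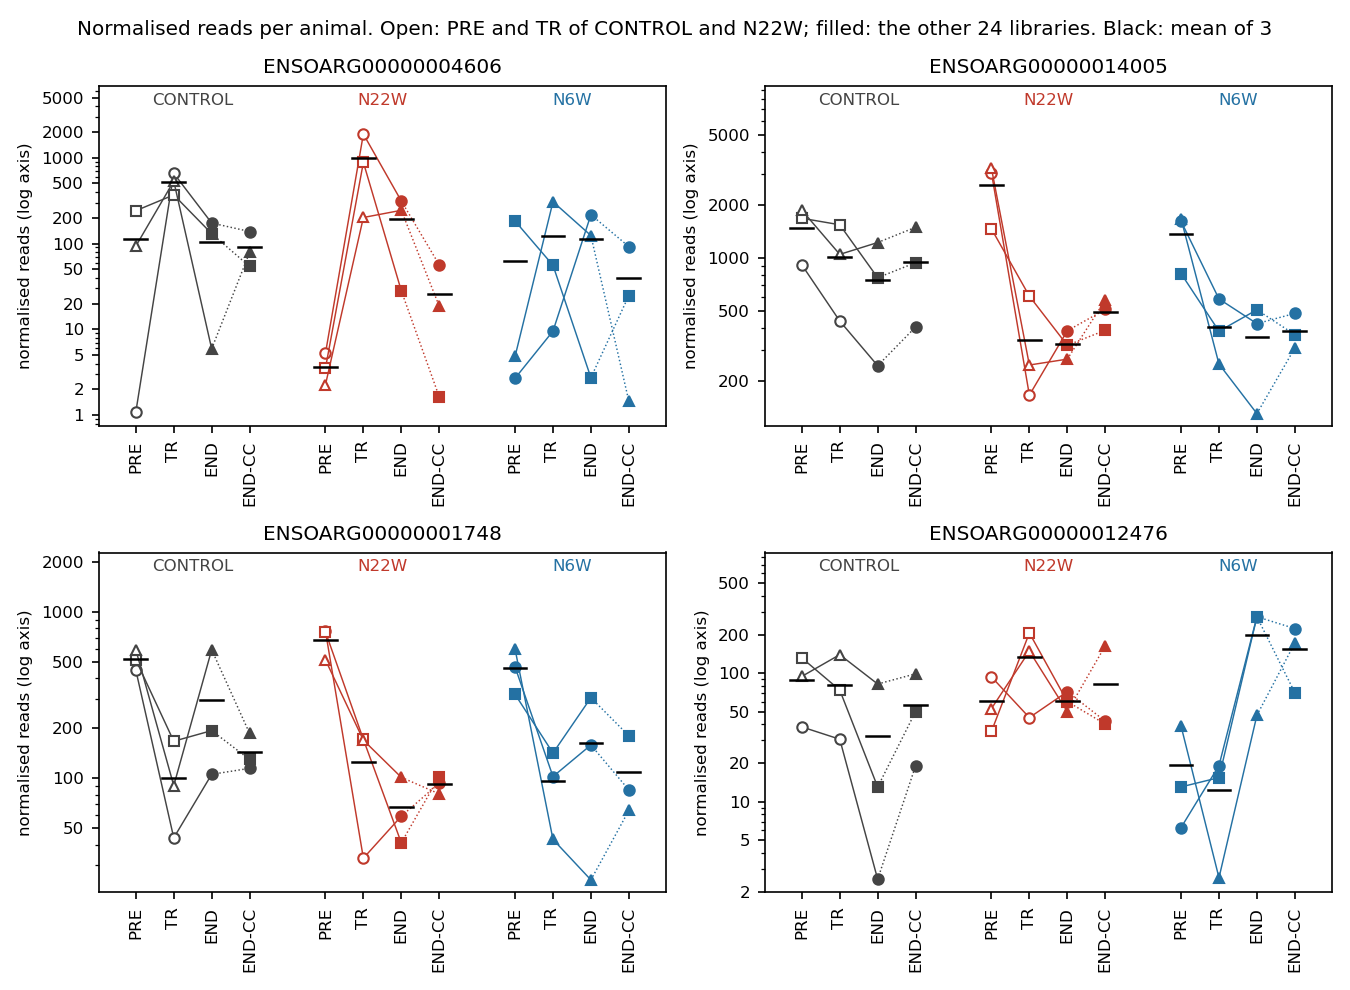
Normalised reads (log axis) of the 4 genes in every library, by arm and time point. Circles, squares and triangles stand for animals 2901, 2902 and 2903 in CONTROL, 2913, 2914 and 2915 in N22W, and 2907, 2908 and 2909 in N6W. Solid lines join the operated muscle of an animal, dotted lines lead to its other side, open symbols mark the 12 libraries that stood apart, and black bars are means of 3. ENSOARG00000014005 and ENSOARG00000001748 lie lower at TR than at PRE in each of the 9 animals, including the 3 N22W animals that chose them. ENSOARG00000004606 starts from PRE values between 1.09 and 241.

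ENSOARG00000004606, chosen as a rise under nandrolone, was higher at TR than at PRE in all 3 CONTROL and 2 of 3 N6W animals. It passed no test of that change outside the arm that chose it. Its level differed widely between sheep, at PRE by 221-fold from the lowest to the highest in CONTROL and 67.7-fold in N6W, and in N6W also at TR (32.1-fold) and END (79.1-fold). In CONTROL it went from 1.09 to 656 in 2901, from 241 to 368 in 2902 and from 93.3 to 533 in 2903. All CONTROL TR values lay above all CONTROL PRE values, and 2901 had by far the lowest start. The log2 fold change was 3.80 (SE 1.80, adjusted p = 0.171). In N6W, which had not yet received drug, it went from 2.70 to 9.55 in 2907, from 182.6 to 55.8 in 2908 and from 4.85 to 306 in 2909. Here PRE and TR overlapped and 2908 moved downward (log2 fold change 1.85, SE 1.80, adjusted p = 0.569). Low starts rested on few reads. The PRE value of 2901 was 1 read, which gives a ratio of TR to PRE of 601 with a 95% exact binomial interval from 107.5 to 23760, and the 2 PRE reads of 2915 give 88.9 with an interval from 24.2 to 741. The starts of 241 in 2902 and 182.6 in 2908 gave ratios of 1.53 (1.31 to 1.79) and 0.305 (0.228 to 0.406), and that of 93.3 in 2903 gave 5.71 (4.49 to 7.35). These intervals cover counting error only. The N22W animals all started low, at 2 to 5 reads, so the arm of the largest rise was also an arm without a high start.

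At the end of the experiment ENSOARG00000004606 remained uneven between sheep. END values were 173, 130.2 and 5.94 in CONTROL (in the order 2901, 2902, 2903), 313, 28.2 and 244 in N22W (2913, 2914, 2915) and 216, 2.74 and 124 in N6W (2907, 2908, 2909). On the other side, END-CC values were 138, 54.0 and 78.8 in CONTROL, 56.5, 1.64 and 18.7 in N22W and 92.0, 24.8 and 1.46 in N6W. The operated side was the higher one in all 3 N22W animals and in 2 of 3 in either of the other arms. The log2 difference of END from END-CC was 3.18 in N22W (SE 1.80, adjusted p = 0.332). It was −0.65 in CONTROL, where the adjusted p was 0.827, and 1.37 in N6W, where it was 0.679. Fitted with the 6 N22W libraries alone, whose 3 differences are close together on the scale tested (2.45 to 3.64), it passed in N22W (adjusted p = 0.0117). The ratios of END to END-CC were 5.54, 17.2 and 13.1 in 2913, 2914 and 2915. The END-CC value of 2914 rested on 2 reads only. The difference between N22W and CONTROL in this side difference was 3.83, with a 95% interval from −1.41 to 9.08 (adjusted p = 0.981). From TR to END in N6W the animals moved in different directions, with log2 changes of 4.37 (2907), −3.92 (2908) and −1.30 (2909). The fitted change was −0.29 (SE 1.80, adjusted p = 0.98).

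ENSOARG00000014005 was lower at every later point, on both sides, than in the operated muscle before release. The other side was sampled only at the end, so END-CC against PRE compares different shoulders as well as different times. In CONTROL it went from 914 to 438 in 2901, from 1681 to 1544 in 2902 and from 1868 to 1048 in 2903 over release. All 3 animals moved down, with overlapping values, and the change did not pass (log2 fold change −0.67, SE 0.42, adjusted p = 0.318). With only the 6 CONTROL libraries it passed, at an adjusted p of 0.0372. In N6W it went from 1616 to 585 in 2907, from 815 to 384 in 2908 and from 1669 to 249.6 in 2909. All TR values lay below all PRE values, and the gene fell by 1.76 on the log2 scale (SE 0.42, adjusted p = 0.0141). This call was lost without animal 2909 (−1.28, adjusted p = 0.182), without the animal term (0.0922) and with only the 6 libraries compared (0.0825). The changes of N6W and CONTROL differed by −1.09 (95% interval −2.32 to 0.14, adjusted p = 0.732).

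At 6 weeks after repair the N6W values of ENSOARG00000014005 were 423, 508 and 130.5 at END and 484, 366 and 308 at END-CC, in the order 2907, 2908 and 2909. Every one of these 6 values lay below the lowest PRE value of the arm, 815. Against PRE the gene was lower at END (log2 fold change −2.09, SE 0.42, adjusted p = 0.00504) and at END-CC (−1.77, adjusted p = 0.0121). These comparisons share the PRE libraries with the release change, so the PRE values enter all 3. The call at END was lost without 2909 (−1.31, adjusted p = 0.14) and with only the 6 libraries compared (0.382). That at END-CC was lost without 2907 (−1.79, 0.0948), without 2909 (−1.44, 0.0678), without the animal term (0.0876) and with only those libraries (0.0993). In the other arms END and END-CC lie in another library set than PRE. Their values were 244, 772 and 1224 at END and 405, 940.3 and 1494 at END-CC in CONTROL, and 386, 319 and 266 at END and 509.5, 388 and 576 at END-CC in N22W. In all 9 animals both were below the animal's own PRE value, and END lay below END-CC in 8 of 9. The N22W PRE values had chosen the gene, and only in N6W do PRE, END and END-CC share a library set. The log2 difference of END from END-CC was −0.43 in CONTROL (adjusted p = 0.491), −0.60 in N22W (0.448) and −0.32 in N6W (0.681), each with an SE of 0.42. Only the fit of the 6 CONTROL libraries alone put the first of these past the threshold (adjusted p = 0.0315).

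ENSOARG00000001748 fell over release in both arms without drug. In CONTROL it went from 449 to 43.9 in 2901, from 518 to 168 in 2902 and from 595 to 90.6 in 2903. In N6W it went from 469 to 103 in 2907, from 321 to 142 in 2908 and from 601 to 43.0 in 2909. TR and PRE values did not overlap in either arm. The log2 fold change was −2.55 in CONTROL (SE 0.59, adjusted p = 0.00948) and −2.37 in N6W (SE 0.59, adjusted p = 0.0177), next to −2.75 in N22W, and the changes of N6W and CONTROL differed by 0.18 (95% interval −1.55 to 1.90, adjusted p = 0.978). The call in CONTROL depended on 2901, whose removal left −2.16 (adjusted p = 0.107), and on 2903, whose removal left −2.47 (0.0556). The call in N6W was lost when 2909 was left out (−1.67, adjusted p = 0.184), when the animal was not in the model (0.0605) and with only the 6 libraries compared (0.0965).

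Of the 3 genes chosen on N22W, then, 1 of 3 passed over release in CONTROL, where 11.2% of all genes tested passed, and 2 of 3 passed in N6W, where 6.98% did. The 3 were chosen in both directions, so their values are given singly and not as a median.

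From TR to END the ratio of the highest to the lowest animal in ENSOARG00000001748 went from 3.82 to 5.62 in CONTROL, from 3.31 to 12.5 in N6W and, the other way, from 5.19 to 2.48 in N22W. END values were 105.9, 194 and 595.5 in CONTROL, 59.3, 41.0 and 101.6 in N22W and 159, 306.5 and 24.5 in N6W, in the order of animals used above. Animal 2903 of CONTROL was back at its PRE value of 595, and 2908 of N6W close to its own of 321. Well below their PRE values stayed 2901 and 2902 of CONTROL, 2907 and 2909 of N6W and all N22W animals. In CONTROL and N22W this reading crosses the library sets, and the N22W PRE values had chosen the gene. On the other side the values lay closer together: 115, 130.1 and 187 in CONTROL, 93.7, 103 and 80.8 in N22W and 85.4, 181 and 64.2 in N6W. All 9 END-CC values lay below the lowest of the 9 PRE values, although the muscle had not been operated. PRE came from the operated side, and the other side has no value before release. In N6W, inside a single library set, the gene lay below PRE at END-CC (log2 fold change −2.16, SE 0.59, adjusted p = 0.0264) and at END (−2.06, adjusted p = 0.0385). Both comparisons share the PRE libraries with the release change of N6W, so the calls are not independent. The call at END-CC was lost without 2907 (−2.02, adjusted p = 0.169) or 2909 (−1.64, 0.114), when the animal was not in the model (0.0862) and with only the 6 libraries compared (0.129). That at END was lost without 2902, which adds only to the estimate of the spread (0.0526), without 2907 (−2.31, 0.0953) or 2909 (−0.81, 0.532), when the animal was not in the model (0.109), without the filter on low values (0.0599) and with only the 6 libraries compared (0.47).

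ENSOARG00000014005 and ENSOARG00000001748 were thus called lower than PRE in N6W on the operated and on the other side, 2 of the 3 genes chosen on release in either case, where 6.19% and 8.18% of all genes tested were called in either direction. Between END and END-CC limma called none of the 3 genes in CONTROL, N22W or N6W, where it called 19.4%, 1.6% and 4.12% of all genes tested. From TR to END in N6W none of the 3 passed either, with log2 fold changes of −0.33 for ENSOARG00000014005 (95% interval −1.20 to 0.54) and 0.31 for ENSOARG00000001748 (−0.90 to 1.53).

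ENSOARG00000012476, chosen on the 6 weeks after repair in N6W, lay lower in that arm before the drug than on both sides at the end. N6W values were 6.29, 13.0 and 38.8 at PRE (2907, 2908, 2909), 19.1, 15.4 and 2.56 at TR, 275.3, 275 and 47.0 at END and 222.7, 70.6 and 172 at END-CC. The PRE values rested on 7, 10 and 24 reads and the TR values on 16, 21 and 5. All END-CC values lay above all PRE values. The PRE and END-CC libraries had no part in the choice, although they come from the same animals. They are from different shoulders. The gene was higher at END-CC than at PRE by 3.14 on the log2 scale (SE 0.77, adjusted p = 0.0151 in limma). That was the 4th highest difference of all genes tested, of which 8.18% were called. The call was lost without 2907 (2.24, adjusted p = 0.202), without the animal term (0.0624) and with only the 6 libraries compared (0.118). From END-CC to END the animals moved in different directions, with log2 differences of 0.30 (2907), 1.95 (2908) and −1.85 (2909).

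In the other arms ENSOARG00000012476 did not follow that course. Their PRE and TR libraries lie in another library set than their later libraries and all those of N6W. Arm and set therefore cannot be told apart there. CONTROL values were 38.2, 131.6 and 94.5 at PRE, 30.7, 74.0 and 139.5 at TR, 2.49, 13.0 and 82.4 at END and 19.0, 50.3 and 99.0 at END-CC. In each CONTROL animal END was the lowest of the 4 values, and 2901 was the lowest of the arm at every time point. N22W values were 93.7, 35.3 and 53.1 at PRE, 45.2, 206 and 149 at TR, 71.9, 60.2 and 50.3 at END and 42.4, 40.2 and 163 at END-CC, without a common direction at any step. The release change was −0.19 in CONTROL (SE 0.77, adjusted p = 0.907) and 0.98 in N22W (adjusted p = 0.421), and the changes differed by 1.17 (95% interval −1.08 to 3.42, adjusted p = 0.931). END lay below END-CC in all 3 CONTROL animals, with a log2 difference of −1.55 (SE 0.77, adjusted p = 0.156), which passed only when the 6 CONTROL libraries were fitted alone (0.0367). In N22W that difference was −0.12 (adjusted p = 0.951). At END-CC, N6W lay above CONTROL by 1.58 (log2, 95% interval 0.13 to 3.04, adjusted p = 0.698) and N22W by 0.50 (−0.95 to 1.96, adjusted p = 0.882). At END, N22W lay above CONTROL by 1.94 (−0.29 to 4.17, adjusted p = 0.998), and N6W, whose END libraries chose the gene, by 3.27.

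**Figure D2:**
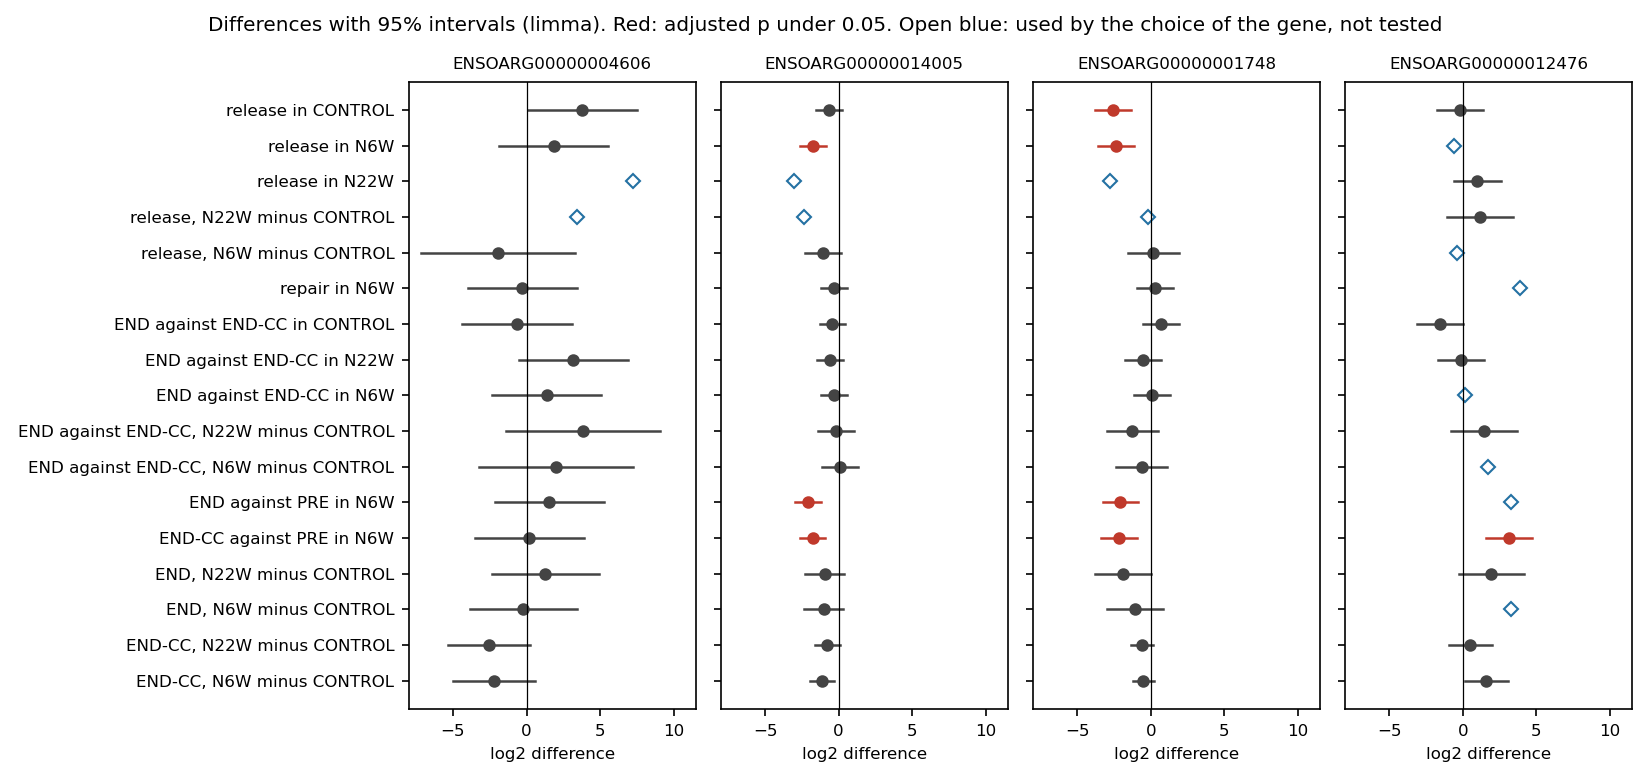
Log2 differences (x axis) of the 4 genes in 17 comparisons (y axis), with 95% intervals from limma. Red marks an adjusted p under 0.05, grey the other tests, and open blue diamonds the values that the choice of the gene had used, which carry no test. Red points are found for release (ENSOARG00000001748 in CONTROL and N6W, ENSOARG00000014005 in N6W) and against PRE in N6W, and the intervals of ENSOARG00000004606 are the widest of the 4.

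The order of the sheep at TR is given as a description, since the TR libraries of N22W had chosen the 3 genes. At TR the animal with the highest ENSOARG00000004606 was the one with the lowest ENSOARG00000014005 and the lowest ENSOARG00000001748 in each arm. In CONTROL this was 2901 (656, 438 and 43.9 normalised reads in that order of genes), in N22W 2913 (1882, 166 and 33.1) and in N6W 2909 (306, 249.6 and 43.0). Their log2 changes from PRE were the largest of their arm in all 3 genes, for example −3.32, −4.50 and −3.77 for ENSOARG00000001748. These 3 TR libraries were also the deepest of their arm, with 35225707, 43066261 and 31396404 reads, and in N22W and N6W, but not in CONTROL, they had the largest overall change, a median absolute log2 change over all genes tested of 0.46 and 0.49. The part of depth and of overall change in this order was not tested. Outside TR this order was also seen in PRE of N6W and in END and END-CC of CONTROL, and it was not seen in PRE of CONTROL, in END and END-CC of N6W or in PRE, END and END-CC of N22W. The order was noticed in these values, and libraries of an animal are not independent of each other.

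**Figure D3:**
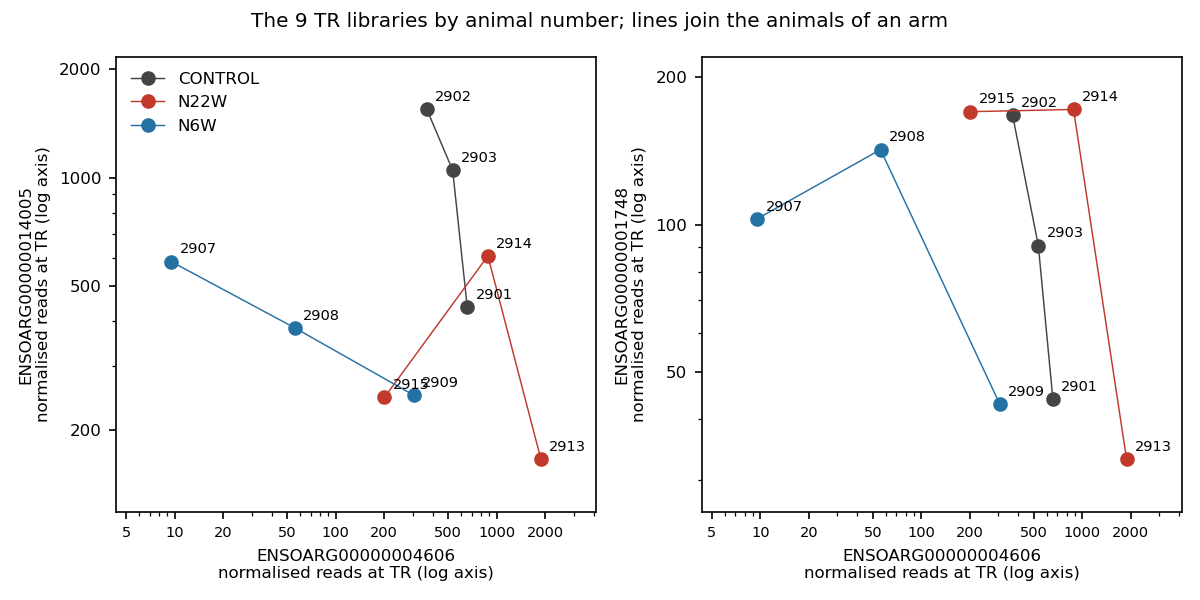
Normalised reads at TR (log axes) of ENSOARG00000014005 (left) and ENSOARG00000001748 (right) against ENSOARG00000004606. Each point is a library labelled with its animal, and lines join the 3 animals of an arm. The rightmost point of each arm, 2901, 2913 or 2909, is also its lowest in both panels.

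The treated arms were compared with CONTROL at a single time point only at END and END-CC, and no test of the 4 genes passed there. For ENSOARG00000012476 the END difference between N6W and CONTROL was not tested, since the choice had used those N6W libraries. At END the means of the treated arms lay below CONTROL for ENSOARG00000014005 and ENSOARG00000001748. For the first the log2 differences were −0.94 (N22W, 95% interval −2.26 to 0.38) and −1.01 (N6W, −2.33 to 0.31), and for the second −1.86 (−3.77 to 0.04) and −1.10 (−3.01 to 0.80), with adjusted p from 0.688 to 0.998. On the unoperated side they were −0.77 (−1.61 to 0.06) and −1.13 (−1.96 to −0.29) for ENSOARG00000014005, and −0.61 (−1.34 to 0.12) and −0.49 (−1.22 to 0.24) for ENSOARG00000001748, with adjusted p from 0.579 to 0.808. For ENSOARG00000004606 they were 1.27 (−2.36 to 4.91) and −0.21 (−3.85 to 3.42) at END and −2.56 (−5.34 to 0.22) and −2.23 (−5.01 to 0.55) at END-CC, with adjusted p from 0.581 to 0.998. In these 4 comparisons limma called 0 of the 16417 genes (0%), with 824 to 1499 genes at an unadjusted p under 0.05, and edgeR called 0. The release change of N22W minus that of CONTROL, which the choice had used in part, was 3.46 for ENSOARG00000004606, −2.38 for ENSOARG00000014005 and −0.20 for ENSOARG00000001748. Limma called 0 genes there (1090 at an unadjusted p under 0.05) and edgeR 11. For the release change of N6W minus that of CONTROL limma called 0 (1224 at an unadjusted p under 0.05) and edgeR 1, and for END against END-CC of N22W minus that of CONTROL limma called 0 (753) and edgeR 0. The difference of ENSOARG00000014005 comes with a higher start: PRE values were 2582 ± 973 in N22W and 1488 ± 506 in CONTROL, and TR values 339.9 ± 235 and 1010 ± 554 (SD, n = 3).

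**Figure D4:**
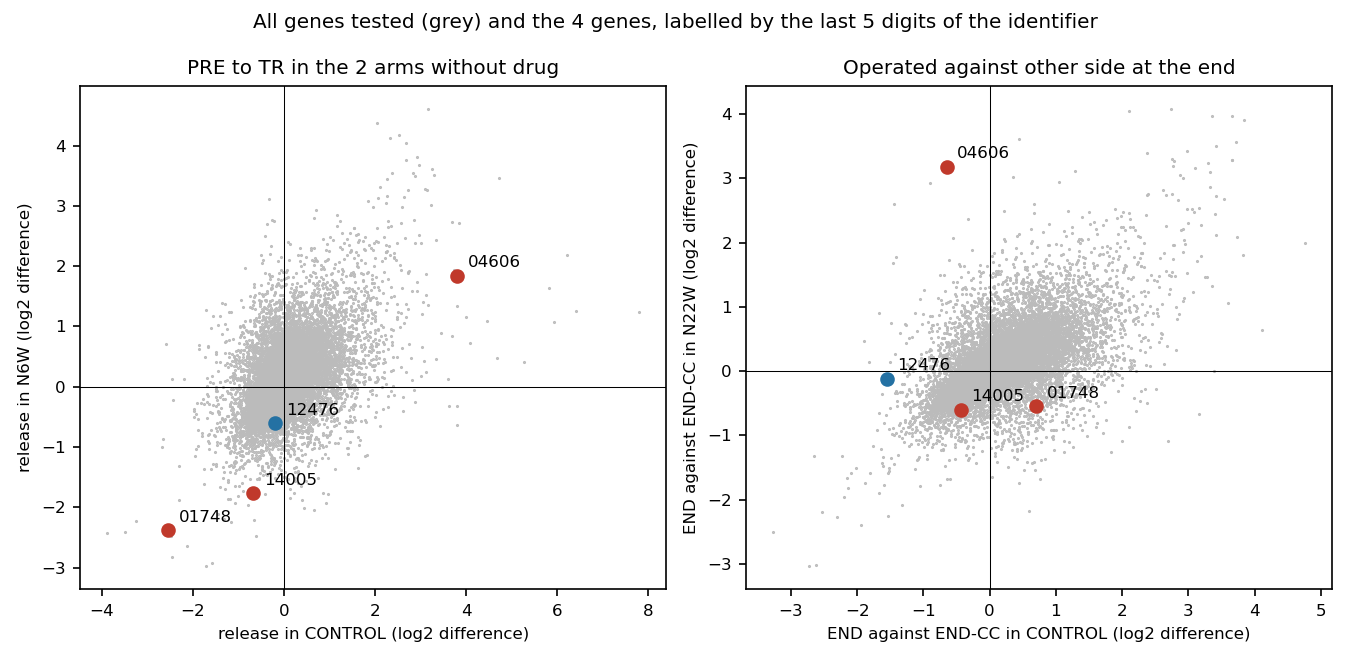
Log2 differences of all 16417 genes tested (grey) and of the 4 genes (red for those chosen on N22W, blue for ENSOARG00000012476), labelled by the last digits of the identifier. Left: release in CONTROL (x) and N6W (y), arms that share no library. Right: END against END-CC in CONTROL (x) and N22W (y). ENSOARG00000001748 lies far down in both arms on the left (−2.55 and −2.37). On the right ENSOARG00000004606 lies at −0.65 in CONTROL and at 3.18 in N22W, the 17th highest there. The difference between these arms did not pass the test, and the residual spread of this gene was the 2nd widest of the 16417.

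Ordered by their group means, the genes had few steps larger than the spread. The order is a description, since PRE and TR of N22W had chosen the first 3 genes, and TR and END of N6W the fourth. It also runs across both library sets. ENSOARG00000004606 was highest in TR of N22W (988 ± 846, SD, n = 3), followed by TR of CONTROL (519 ± 144) and END of N22W (195 ± 148). Of 11 steps between neighbouring groups only that from TR of CONTROL to END of N22W exceeded the larger SD of its neighbours. That step crosses the library sets. The lowest group was PRE of N22W (3.68 ± 1.51). ENSOARG00000014005 and ENSOARG00000001748 were highest in the 3 PRE groups, led by N22W, and lowest in END of N22W (324 ± 59.9 and 67.3 ± 31.1). For each of them only the step from PRE of N22W to PRE of CONTROL exceeded the larger SD, and the ranges overlapped there too. ENSOARG00000012476 ran from END of N6W (199 ± 132) and END-CC of N6W (155 ± 77.5) down to PRE and TR of N6W (19.4 ± 17.1 and 12.4 ± 8.68), and none of its 11 steps exceeded the larger SD.

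After allowing for arm, time point and animal, the residual SD of ENSOARG00000004606 was 2.52 on the log2 scale, the 2nd widest of the 16417 genes, whose median was 0.29. It was 1.07 for ENSOARG00000012476 (rank 200 from the widest), 0.82 for ENSOARG00000001748 (rank 1184) and 0.58 for ENSOARG00000014005 (rank 3752). The genes most like each of the 4 were found by the Pearson correlation of log2 values over the 36 libraries after removal of the mean of either library set. These libraries share animals, so r is a description. For ENSOARG00000004606 they were ENSOARG00000010811 (r = 0.92), ENSOARG00000015061 (0.90) and ENSOARG00000012746 (0.86), each of them listed at 0 in at least 1 library. For ENSOARG00000014005 they were ENSOARG00000012839 (0.89), ENSOARG00000012740 (0.85) and ENSOARG00000009835 (0.85), and for ENSOARG00000001748 ENSOARG00000013395 (0.82), ENSOARG00000018911 (0.81) and ENSOARG00000015288 (0.80). ENSOARG00000012476 had no close companion: ENSOARG00000017915, ENSOARG00000017899 and ENSOARG00000013254 reached 0.68, 0.68 and 0.67.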

How the data were processed

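The deposited files hold 1 signal per gene and library. Per the submitters' processing notes the authors used STAR 2.3.0e, R 3.0.2 and the assembly Oar_v3.1, with no role stated. The counter, the annotation and the kind of size factor were not given in the sources used here. Libraries were stranded and depleted of ribosomal RNA with human probes, per the labels' protocols. Values are multiples of 1 step per library (0.512 to 1.62), from which whole reads were recovered: below 100 reads, 100.0% of values were whole to within 0.1. Of the identifiers 0 matched the name table.

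The main test was limma 3.58.1 (trend option), applied to log2(value + 1) of genes with a median of at least 0.5. It ran over 36 libraries with a block for each animal, and over the 9 libraries of a time point without a block between arms. Fold changes on this scale understate changes of low genes. P values are two-sided, Benjamini-Hochberg adjusted per comparison over 16417 genes, with 0.05 as the threshold. The spread includes libraries that chose the genes. Alternatives were a pseudocount of 0.5, no filter, edgeR 4.0.16 with TMM on recovered reads, no block, only the libraries compared, and leaving out each animal. The scripts were tested on simulated data with the same spread for all genes and no difference between library sets. That test does not cover genes that vary as widely as ENSOARG00000004606. Pairing follows from the design, in which the same animals gave repeated biopsies: same-animal deviations from group means had a mean r of 0.24 over genes. Libraries of a group were no copies of each other (median chi-square per gene 1.53 to 11.7 over 36 pairs). Members and lists were chosen with earlier results of these data known. Other genes named are the 3 most correlated with each member and the neighbours of the members in rank.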

Additional observations from a re-analysis of the deposited data

Results flagged for a closer look

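In ENSOARG00000012476 the change from TR to END pointed up in every N6W animal and down in every CONTROL animal, and the mean log2 changes lay 5.99 apart. The same signs held from PRE to END, with mean log2 changes 5.58 apart. There the changes of 2909 in N6W (38.8 to 47.0, log2 0.27) and of 2903 in CONTROL (94.5 to 82.4, log2 −0.19) were small. Neither difference between the arms was tested: the CONTROL changes cross the library sets, so set and arm cannot be told apart, and the N6W libraries had chosen the gene. Groups of 3 animals are too small for the check on single outlying samples.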

How the results depend on the processing

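Of the 8 calls among the 55 tests of the 4 genes, each was lost under at least 1 alternative, with the values given beside the result. Without the replicate block for the animal, limma called 732, 397 and 1438 genes over release in CONTROL, N6W and N22W, 2 over repair in N6W, 1596, 38 and 116 between END and END-CC in CONTROL, N22W and N6W, and 372 and 417 against PRE in N6W at END and END-CC. With only the libraries compared it called 33 and 711 over release in N6W and N22W, 7 over repair, 791 and 0 between END and END-CC in N22W and N6W, 1 for the N22W minus CONTROL difference between sides, and 0 and 0 against PRE in N6W, where fewer samples estimate the spread. Without the filter on low values it called 15 for release of N22W minus CONTROL, 9 over repair, 117 and 413 between END and END-CC in N22W and N6W, 2 and 2 between arms at END and 17 and 2 at END-CC. On recovered reads edgeR called 1802, 1027 and 2529 over release in CONTROL, N6W and N22W, 24 over repair, and 11 and 1 for the release differences of N22W and N6W from CONTROL. With edgeR, 3 uncalled log2 differences changed sign: ENSOARG00000001748 for release of N6W minus CONTROL (−0.24), and ENSOARG00000004606 from PRE to END-CC in N6W (−0.69) and at END of N6W minus CONTROL (0.23). The cause of these changes was not tested.

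Leaving out each animal in turn gave 175 to 2575, 161 to 1269 and 381 to 3308 calls over release in CONTROL, N6W and N22W, and 0 to 6 and 0 to 58 for the release differences of N22W and N6W from CONTROL. It gave 0 to 20 over repair, 752 to 3930, 0 to 896 and 2 to 1213 between END and END-CC in CONTROL, N22W and N6W, 355 to 1027 and 272 to 1226 against PRE in N6W, 0 to 4 and 0 to 3 between arms at END and 0 to 1 and 0 to 1 at END-CC. Directions that turned were of uncalled differences or of untested values that the choice of the gene had used. For ENSOARG00000004606 the ranges were −0.091 to 3.61 over release in N6W, −3.89 to 0.29 for its difference from CONTROL, −2.61 to 1.53 over repair in N6W, −1.60 to 0.79 and −0.78 to 3.45 between END and END-CC in CONTROL and N6W, −0.13 to 4.09 for the latter's difference from CONTROL, −0.60 to 5.15 and −2.04 to 1.70 against PRE in N6W, and −0.21 to 2.36 and −1.70 to 1.61 at END of N22W and N6W against CONTROL. For ENSOARG00000014005 they were −0.71 to 0.14 between END and END-CC in N6W, and −0.32 to 0.092 and −0.28 to 0.57 for the side differences of N22W and N6W from CONTROL. For ENSOARG00000001748 they were −0.77 to 0.68 and −0.43 to 0.88 for release of N22W and N6W minus CONTROL, −0.079 to 0.86 over repair, −0.30 to 0.82 between sides in N6W and −1.02 to 0.12 for its difference from CONTROL. For ENSOARG00000012476 they were −0.57 to 0.12 and −1.63 to 0.84 over release in CONTROL and N6W, −1.44 to 1.04 for the difference of these, −0.55 to 0.66 and −0.77 to 1.13 between sides in N22W and N6W, and −0.15 to 1.05 at END-CC of N22W minus CONTROL. Where an arm kept 2 animals, they are assumed to vary like the others. Depth limits ENSOARG00000004606 most at PRE, which rested on 5 reads or fewer in 6 of 9 animals. This gene also had 2 reads at END of 2908, 2 at END-CC of 2914 and 1 at END-CC of 2909. ENSOARG00000012476 had 7 to 24 reads at PRE and 5 to 21 at TR of N6W, and 2 at END of 2901.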
